A study of Mus musculus with 9 samples.

Results

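Transcripts of 7 globin genes were followed in the blood of mouse embryos carrying 0, 1 or 2 copies of the Cbfb allele named ΔC95: the embryonic genes Hbb-bh1, Hbb-y and Hba-x and the adult genes Hba-a1, Hba-a2, Hbb-b1 and Hbb-b2. Every probe set of the array whose platform annotation names at least 1 of these genes was taken, which gave 15 of the 45101 probe sets in the table for 7 of the 19324 genes that the annotation names. Of these, 11 name a member alone and 4 name several globin genes. Peripheral blood was collected at E12.5, mid-gestation, from Cbfb+/+ (wild-type), Cbfb+/ΔC95 (heterozygous) and CbfbΔC95/ΔC95 (homozygous) embryos, whose strain background was mixed C57BL6/129SvEv in every group. A sample pooled 8 to 10 embryos of 1 genotype, and every genotype had 3 of the 9 arrays. Heterozygous parents were mated to give all 3 genotypes, and the labels name the allele without describing it. The product of Cbfb pairs with the DNA-binding RUNX proteins. The title of the series names the fusion CBFβ-SMMHC and asks about its C-terminus. Whether replicate arrays stem from different pools is not stated, so p-values here measure the spread among arrays alone, and that spread may be technical.

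Hemoglobin is a tetramer of paired alpha-like and beta-like globin chains, each holding a heme. In the mouse the alpha-like cluster holds Hba-x, which encodes the embryonic zeta chain, followed by the adult genes Hba-a1 and Hba-a2. The beta-like cluster holds the embryonic genes Hbb-y (epsilon-y) and Hbb-bh1 (beta-h1) and a pair of adult genes that depends on the strain: Hbb-bs and Hbb-bt in the reference strain C57BL/6J, Hbb-b1 and Hbb-b2 in strains of another haplotype. The large nucleated red cells of the yolk sac, the primitive lineage, circulate at mid-gestation and carry embryonic chains together with adult alpha chains. Definitive red cells made later in the fetal liver carry adult chains only. A bulk profile of blood can hold both, and fewer cells of a type and less RNA per cell cannot be told apart in it.

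The probe sets do not separate all members. Hbb-bh1 and Hbb-y were each read by 3 probe sets of their own, Hba-x by 1, Hbb-b2 by 2, and Hba-a1 and Hba-a2 by 1 each. Own means only that the annotation names no other gene. Whether such probe sets, those ending in _x_at among them, also read other globin transcripts was not tested. Hbb-b1 had none of its own. Another 3 probe sets name Hba-a1 together with Hba-a2, and 1 names Hbb-b1 and Hbb-b2 with Hbb-bs and Hbb-bt. The adult alpha pair is also alike around its starts, though probe sets read transcripts, whose sequences were not compared here. In the RefSeq table (build GRCm38.p6), the windows of 300 bases around the starts of Hba-a1 and Hba-a2 share an unbroken run of 297 bases. The longest run that either shares with Hba-x is 10 bases, and Hbb-bs and Hbb-bt share 14. Promoters were matched for 4 members, Hba-x, Hba-a1, Hba-a2 and Hbb-y, and for Hbb-bs and Hbb-bt. The 150 bases before the start are given 5′ to 3′ for an embryonic and an adult gene of each cluster. Capitals mark matches, searched on both strands, to 4 motifs of promoters. The first is the box spelled CCAAT, which general activators bind. The second is the core CCNCNCCC, to which Kruppel-like factors such as Klf1 attach. The third is the motif of the GATA family, spelled GATAA in this search. The last resembles the box near the start of many promoters and was searched as ATAAA, so that its matches can overlap those of the motif named before it.
Hba-x, chr11:32276450-32276599, plus strand: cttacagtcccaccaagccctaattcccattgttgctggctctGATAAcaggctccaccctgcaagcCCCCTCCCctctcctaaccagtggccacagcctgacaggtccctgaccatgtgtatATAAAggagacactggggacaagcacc
Hba-a1, chr11:32283522-32283671, plus strand: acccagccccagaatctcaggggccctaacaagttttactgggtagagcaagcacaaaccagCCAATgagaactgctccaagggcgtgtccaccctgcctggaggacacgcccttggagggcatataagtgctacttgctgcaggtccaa
Hbb-y, chr7:103853208-103853357, minus strand: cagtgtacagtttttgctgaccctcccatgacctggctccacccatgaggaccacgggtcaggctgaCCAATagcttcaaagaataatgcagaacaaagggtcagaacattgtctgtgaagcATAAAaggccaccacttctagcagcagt
Hbb-bs, chr7:103827929-103828078, minus strand: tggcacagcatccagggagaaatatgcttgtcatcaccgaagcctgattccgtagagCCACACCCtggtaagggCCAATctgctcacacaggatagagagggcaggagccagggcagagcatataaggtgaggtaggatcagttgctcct
Hba-x holds the Kruppel-like core, the GATA motif and the start-proximal motif. Of the strings searched, Hba-a1 matches the CCAAT box alone. Hbb-y holds the CCAAT box and the start-proximal motif, and Hbb-bs the CCAAT box and the Kruppel-like core. Near their starts Hba-a1 and Hbb-bs read ATAAG, which differs from the ATAAA searched in its last letter and so was not marked. The adult gene Hbb-bt, not printed, matches ATAAA. The start-proximal motif therefore does not separate embryonic from adult genes here. In the same window of all 32851 promoters in the table, 24.5% hold the CCAAT box, 38.1% the Kruppel-like core, 13.4% the GATA motif and 24.1% the start-proximal motif. A match is a string of letters, and whether a factor was bound was not measured.

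The deposited values are on a log2 scale and ran from 1.49 to 14.56. Globin probe sets stood at its upper end. Of the 12 probe sets with a mean of 14 or more, 10 were members. The shared adult alpha probe set 1428361_x_at held the highest value of every array, between 14.49 and 14.56. Probe sets 1437810_a_at (Hbb-bh1), 1452757_s_at (adult alpha, shared) and 1448716_at (Hba-x) held ranks 2, 3 and 4 on each of the 9 arrays. Values there were also close to tied: 1428361_x_at took 5 distinct values over the 9 arrays at 4 decimals and read 14.53 on each heterozygous array. Among probe sets that are not members, differences between genotypes were smaller near the top of the range. In homozygous minus wild-type blood 69.0% of the 1864 probe sets with means of 8 to 10 passed the test (limma, adjusted p under 0.05), with a median absolute difference of 0.31. From 13 to 14 it was 23.6% of 89, with a median of 0.077. Members at the ceiling are therefore given with the intervals of their differences.

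**Figure D1:**
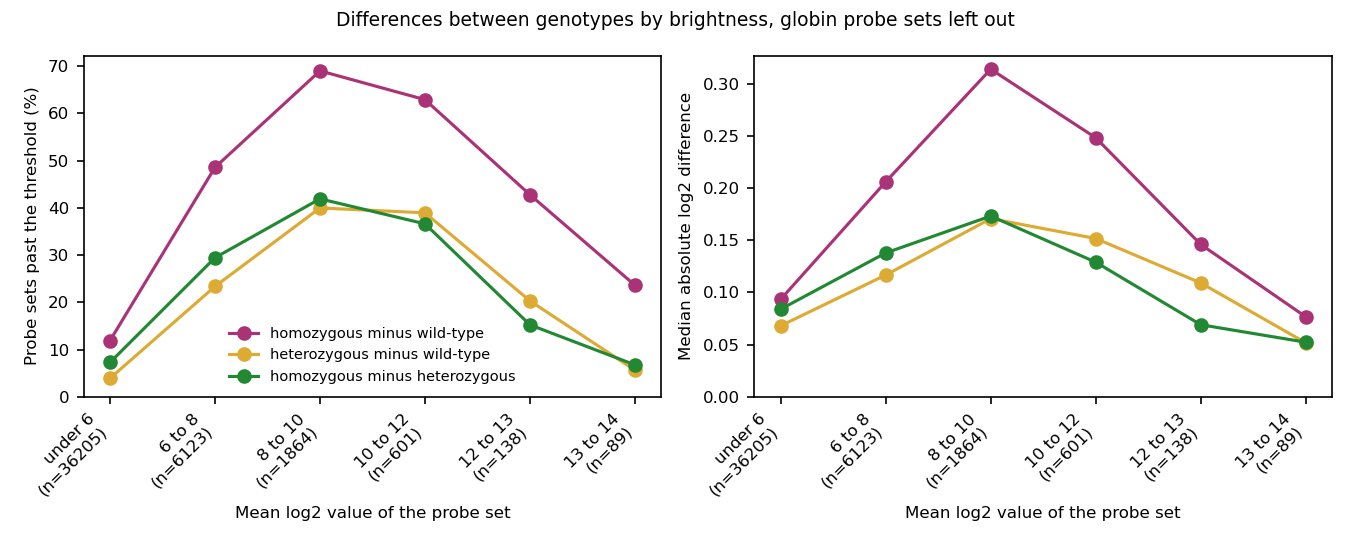
Share of probe sets past the test (left, percent) and median absolute log2 difference (right) against the mean log2 value of the probe set, in bands, for the 3 comparisons between genotypes; globin probe sets are left out and n is the number of probe sets in a band. Both measures peak at means of 8 to 10 and fall toward the top, for homozygous minus wild-type blood from 69.0% to 23.6% and from 0.31 to 0.077.

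All 7 embryonic probe sets stayed near the ceiling in every genotype, and none passed the test in any comparison. The background is that 20% of the 45037 probe sets tested passed in homozygous minus wild-type, 8.56% in heterozygous minus wild-type and 12.1% in homozygous minus heterozygous blood (limma, Benjamini-Hochberg adjusted p under 0.05). Hba-x, the zeta chain gene, read 14.31, 14.28 and 14.30 on the wild-type arrays, 14.30, 14.31 and 14.31 on the heterozygous and 14.33, 14.35 and 14.37 on the homozygous arrays. The homozygous arrays lay above all wild-type arrays, by a mean log2 difference of 0.055 (95% interval -0.056 to 0.167, adjusted p = 0.506, limma). In heterozygous minus wild-type blood it was 0.014 (-0.098 to 0.126).

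Hbb-bh1, the beta-h1 gene, gave the largest of these differences. Its probe set 1437990_x_at read 14.17, 14.16 and 14.19 in wild-type, 14.17, 14.17 and 14.13 in heterozygous and 14.23, 14.25 and 14.26 in homozygous blood. The homozygous arrays did not overlap with either other group, and the difference from wild type was 0.075, or 1.05-fold (-0.038 to 0.187, adjusted p = 0.358, limma). By 1437810_a_at the wild-type arrays read 14.38, 14.38 and 14.37, the heterozygous 14.38, 14.36 and 14.39, and the homozygous 14.41, 14.43 and 14.43. Here too the homozygous arrays were the 3 highest. The remaining probe set, 1450736_a_at, overlapped between homozygous and wild-type arrays, with a difference of 0.040, and lay above the heterozygous arrays without overlap, by 0.047.

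Hbb-y, the epsilon-y gene, was measured at wild-type means of 14.18 (1450621_a_at), 14.08 (1436717_x_at) and 14.02 (1436823_x_at). The homozygous minus wild-type differences were 0.030, 0.038 and 0.057. By 1450621_a_at the wild-type arrays read 14.19, 14.17 and 14.19 and the homozygous arrays 14.20, 14.21 and 14.23, without overlap. By 1436717_x_at the highest wild-type array, at 14.12, lay above 2 of the homozygous arrays.

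As a group, the 7 embryonic probe sets had a median difference of 0.051 in homozygous minus wild-type blood, each of them above 0. This is a description: the median over all probe sets tested was 0.041 in the same comparison, and the 91 other probe sets with a mean of 13 or more had a median of 0.0073. In 5 of the 7 the homozygous arrays lay above all wild-type arrays without overlap, an arrangement found in 17.5% of all probe sets. It was commoner among the 91 other probe sets with a mean of 13 or more, where 38 showed it. In heterozygous minus wild-type blood 3 were above and 4 below 0, with a median of -0.0069. None lay above all wild-type arrays (background 11.6% of all probe sets, and 35 of the same 91). The homozygous sign held with cyclic loess, array medians and reference genes. It also held for the 4 embryonic probe sets left without those ending in _x_at or _s_at, at differences of 0.030 to 0.055. Quantile normalization of the table set 3 of the 7 differences to 0 and left a median of 7.41e-06. That method gives a rank the same value on every array. Hba-x and 1437810_a_at kept their ranks on every array, so their 0 was fixed in advance. The calls turned on how the spread is modelled. The standard limma fit draws the spread of a probe set toward that of the whole table, where the median SD within a genotype was 0.093, against 0.014 for the 11 members at means of 13 or more. With a spread that follows brightness, 3 embryonic probe sets passed as higher in homozygous blood, 1437990_x_at (adjusted p = 0.00147), Hba-x (adjusted p = 0.00792) and 1437810_a_at (adjusted p = 0.0108). The same fit called 21.4% of all probe sets.

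**Figure D2:**
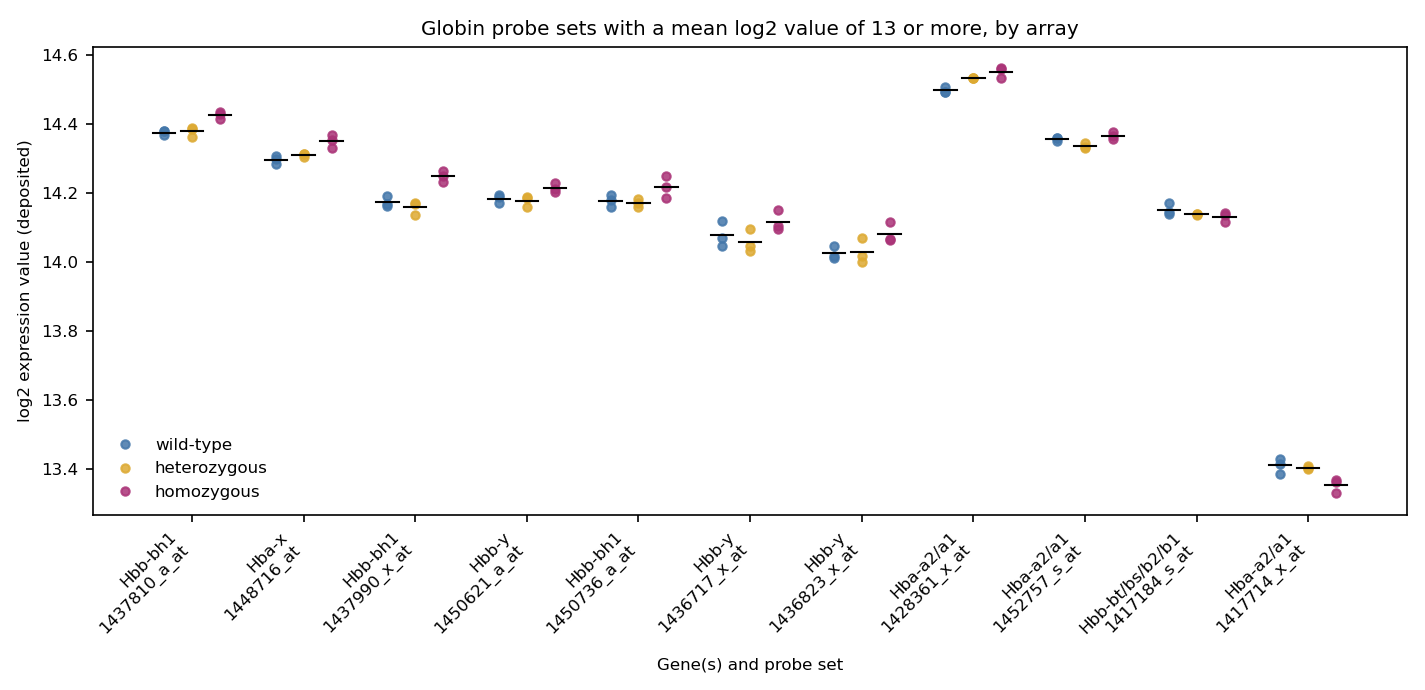
Deposited log2 values of the 11 globin probe sets with a mean of 13 or more; each point is an array, bars are means of 3 arrays, colours are genotypes. The values lie at 14 or above apart from 1417714_x_at near 13.4, and the homozygous arrays of Hba-x, of 2 Hbb-bh1 probe sets and of the Hbb-y probe set 1450621_a_at lie above all others.

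Of the 4 adult probe sets that name several genes, 3 had means above 14 and 1417714_x_at a mean of 13.39. None of the 4 passed the test in any comparison. The adult beta probe set 1417184_s_at, which names Hbb-b1, Hbb-b2, Hbb-bs and Hbb-bt, read 14.17, 14.14 and 14.14 in wild-type, 14.14 on each heterozygous array and 14.12, 14.14 and 14.14 in homozygous blood. The genotypes overlapped, with a homozygous minus wild-type difference of -0.020 (-0.132 to 0.091). The adult alpha probe sets went different ways. 1428361_x_at read 14.51, 14.49 and 14.49 in wild-type and 14.53, 14.56 and 14.56 in homozygous blood, a difference of 0.053 without overlap. 1452757_s_at differed by 0.010. 1417714_x_at, the dimmest of the 3, read 13.39, 13.42 and 13.43 in wild-type, 13.40, 13.41 and 13.40 in heterozygous and 13.33, 13.37 and 13.36 in homozygous blood. Its homozygous minus wild-type difference of -0.058 (-0.171 to 0.055) again came without overlap. Of all probe sets 14.9% lay below in this way, as did 30 of the 91 others with means of 13 or more that are not members. With a spread that follows brightness 1428361_x_at passed as higher (adjusted p = 0.00597) and 1417714_x_at as lower (adjusted p = 0.024), so the shared adult alpha probe sets do not give 1 direction.

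Among the 4 probe sets that name 1 adult gene, all below the ceiling, 2 passed in homozygous minus wild-type blood. The probe set that names Hba-a2 alone, 1427219_at, gave the largest change of any member. It read 8.13, 8.09 and 8.12 in wild-type, 7.67, 7.69 and 7.72 in heterozygous and 7.35, 7.32 and 7.33 in homozygous blood. The 3 genotypes formed separate steps with no overlap. In homozygous minus wild-type blood 11.7% of all probe sets were called lower. By 1427219_at, Hba-a2 fell there by 0.78 ± 0.05 log2 units (SE, 1.71-fold, 95% interval -0.89 to -0.66, adjusted p = 5.25e-07, limma). In heterozygous blood it fell by 0.42 ± 0.05 (1.34-fold, -0.53 to -0.31, adjusted p = 0.000381; 5.15% of all were called lower), and from heterozygous to homozygous blood by 0.36 ± 0.05 (-0.47 to -0.25, adjusted p = 0.000601; 7.95% called lower). The first and second copy of the allele thus went with falls whose intervals overlap. All 3 calls held under each of the 21 alternative settings, array scalings included. The 3 probe sets that name Hba-a2 together with Hba-a1 differed by -0.058 to 0.053 in homozygous minus wild-type blood. They were far brighter, at means of 13.39 to 14.53 against 7.71 for 1427219_at. Among probe sets that are not members, differences were smaller near the top of the range, yet 23.6% of the 89 at means of 13 to 14 passed. Whether brightness held down the differences of these 3 shared probe sets was not tested. The dimmest, 1417714_x_at, lay lower without overlap, with an interval of -0.171 to 0.055. Whether 1427219_at reads the same mRNA as these was not tested. Where in the transcript 1427219_at lies was not analysed here.

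Which adult beta genes a mouse carries depends on the strain, and the background here was mixed. The labels give no haplotype for a pool, so its part in differences of Hbb-b2 cannot be told apart from genotype. Hbb-b2 was read by 2 probe sets that disagreed. The brighter, 1427866_x_at, read 11.04, 11.10 and 11.16 in wild-type, 10.81, 10.75 and 10.93 in heterozygous and 11.19, 10.75 and 11.02 in homozygous blood. The heterozygous arrays lay below all wild-type arrays, by a difference of -0.27 ± 0.10 that did not pass the test (-0.49 to -0.06, adjusted p = 0.129, limma). It passed in 5 of 20 alternatives. The homozygous arrays spread over both other groups (SD 0.22), with replicate 2 low, and the difference from wild type was -0.11 with all arrays and 0.0037 without that array.

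The dim Hbb-b2 probe set, 1427865_at, read 3.96, 3.81 and 3.76 in wild-type, 3.95, 4.08 and 4.17 in heterozygous and 4.45, 4.20 and 4.28 in homozygous blood. Hbb-b2 by this probe set rose by 0.46 ± 0.08 in homozygous blood (SE; 1.38-fold, adjusted p = 0.00145, limma; 8.34% of all probe sets were called higher). Its values lie near or below the array medians, which were 4.27 to 4.30, and detection calls were not used here. The heterozygous difference of 0.22 did not pass (adjusted p = 0.156). The probe set that names Hba-a1 alone, 1453574_at, was dimmer still at a wild-type mean of 3.67. It differed by -0.038 in homozygous blood (-0.202 to 0.127), where replicates 1 to 3 read 3.67, 3.77 and 3.45.

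**Figure D3:**
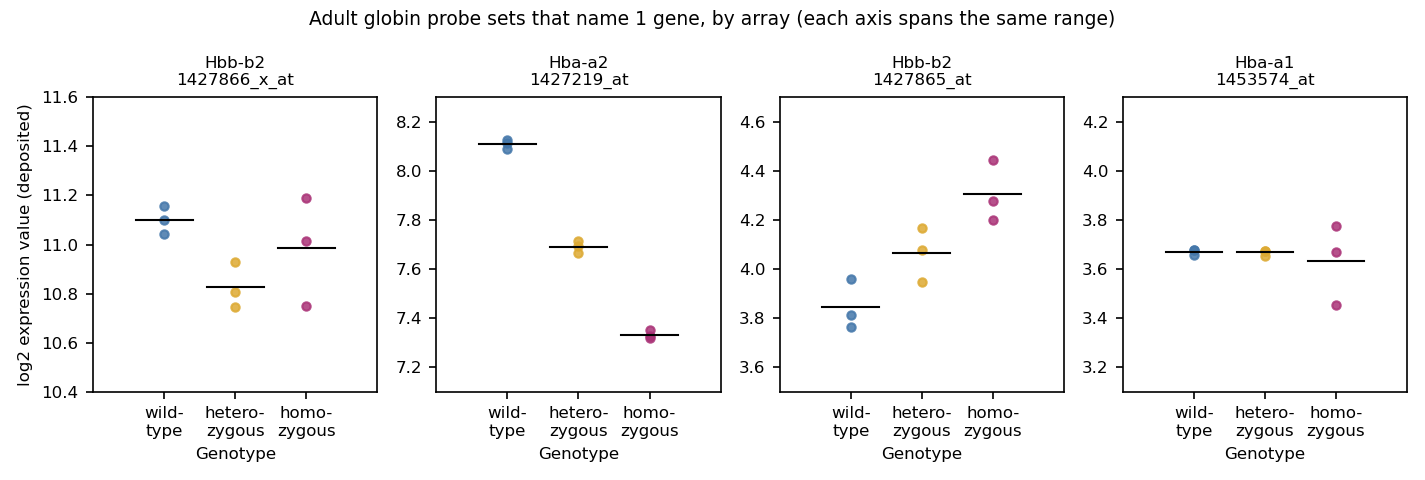
Deposited log2 values of the 4 probe sets that name 1 adult globin gene, by genotype; points are arrays, bars are means of 3 arrays, and each vertical axis spans the same range. Hba-a2 steps down from 8.11 to 7.69 and 7.33, the dim Hbb-b2 probe set steps up from 3.84 to 4.31, and the brighter Hbb-b2 and the Hba-a1 probe sets overlap between wild-type and homozygous blood.

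In all, 2 of the 15 member probe sets passed in homozygous minus wild-type blood (1 higher, 1 lower; background 20%), 1 in heterozygous minus wild-type (lower; background 8.56%) and 1 in homozygous minus heterozygous blood (lower; background 12.1%). Both comparisons with wild type use the same wild-type arrays. In none of the 3 was the share of members called above the background. The counts moved with the model of the spread and with the scaling. With a spread that follows brightness they were 7, 2 and 3, in that order of comparisons, against backgrounds of 21.4%, 10.8% and 14.3%. Without sharing the spread between probe sets they were 7, 1 and 4 (backgrounds 16.3%, 6.7% and 9.02%). After scaling on reference genes they were 2, 2 and 13 (24.7%, 15.8% and 57.7%). At an adjusted p under 0.01 they were 2, 1 and 1 (13.6%, 4.78% and 6.79%).

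**Figure D4:**
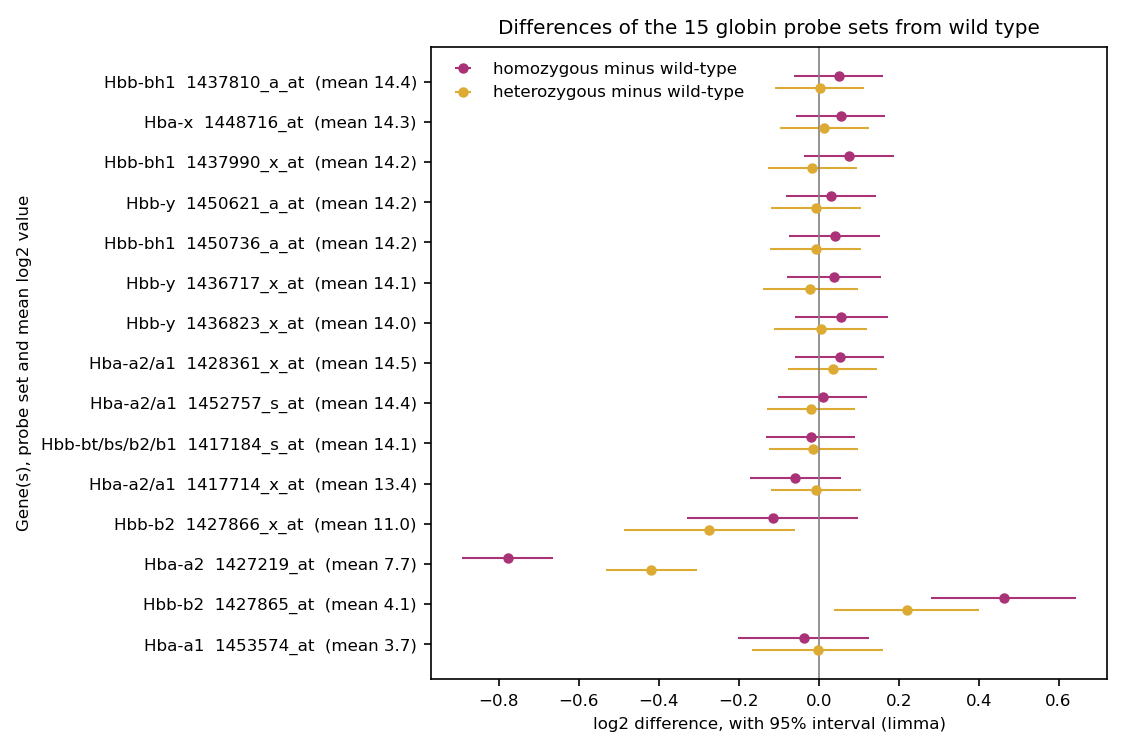
Log2 differences from wild type of the 15 globin probe sets with 95% intervals (limma), for homozygous and heterozygous blood; the mean log2 value is given beside each name. The 11 probe sets at means of 13 or more lie between -0.058 and 0.075, while Hba-a2 lies at -0.78 and -0.42.

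The genes whose arrays followed Hba-a2 most closely were sought over all 9 arrays, by the root mean square difference of values centred on each gene's own mean. They were Gng12 (0.022), a G protein gamma subunit, Paip2 (0.033), an inhibitor of poly(A)-binding protein, Metap2 (0.036), a methionine aminopeptidase, Ube2b (0.037), a ubiquitin-conjugating enzyme, and Chic2 (0.040). Gng12 changed by -0.74 and -0.39, and Paip2 by -0.78 and -0.47, in homozygous and heterozygous minus wild-type blood. The nearest to the dim Hbb-b2 probe set were Eif2d (0.045), Krtcap2 (0.049), Nfu1 (0.054), Mrpl58 (0.055) and Taf1c (0.055). These distances are descriptions over arrays that fall into 3 genotypes.

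Regulators of globin genes, all of them below the ceiling, fell more often than they rose. Of 25 genes, all measured, 12 fell and 2 rose in homozygous minus wild-type blood, with a median difference of -0.18. Over the 18193 genes read alone by some probe set, 25.6% passed, 10.7% higher and 14.9% lower, and the median was 0.046. The share that passed depended on brightness, from 11.9% of probe sets at means under 6 to 69.0% at 8 to 10, globin probe sets left out. Myb, a transcription factor of definitive progenitors, fell most, from 5.39 to 3.41 (log2 difference -1.98 ± 0.17, SE, adjusted p = 3.66e-06, limma). Its other 2 probe sets gave -1.03 and -0.37, both called lower, and the homozygous mean lies below the array medians, so the size of the fall differs between probe sets. Tal1 and Lmo2 act in the erythroid complex that binds globin control regions, and fell by 0.96 and 0.92. Ldb1, which bridges that complex between enhancer and promoter, fell by 0.32. Sox6, a repressor of embryonic beta-like globin genes in definitive cells, was at -0.46, and the deacetylase gene Hdac2 at -0.49 (its other probe sets from -0.65 to 0.12). The genes that rose were Dnmt1, the maintenance DNA methyltransferase, by 0.52, and Gata1, the main erythroid GATA factor, by 0.18 (adjusted p = 0.0435). The call of Gata1 was lost in 13 of 21 alternatives, 8 of the 9 that leave out an array among them, and its difference ranged from 0.14 to 0.23 over all 21 (adjusted p 0.000505 to 0.132). Klf1, the activator of adult beta globin, had means of 11.98 (wild-type) and 11.96 (homozygous), a difference of -0.018 (adjusted p = 0.868). Bcl11a, the repressor of embryonic globin genes, was at 0.028 by its brightest probe set and between -0.36 and 0.037 by its other 6.

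In heterozygous minus wild-type blood 4 regulators fell and 2 rose (background 11.8% of genes, 4.79% higher and 7.04% lower), with a median of -0.034. Myb was at -1.21 by its brightest probe set and at -0.70 and -0.30, neither called, by its other 2. Lmo2 was at -0.76, Ldb1 at -0.39 and Tal1 at -0.30, and Dnmt1 rose by 0.50. Klf2, a Kruppel-like factor that acts on embryonic beta-like globin genes in primitive cells, rose by 0.33 in heterozygous blood and fell by 0.29 in homozygous blood. The difference between these genotypes, -0.61, passed (adjusted p = 6.78e-05, limma). In homozygous minus heterozygous blood 6 regulators fell and none rose (background 15.8%, 5.38% higher and 10.4% lower).

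**Figure D5:**
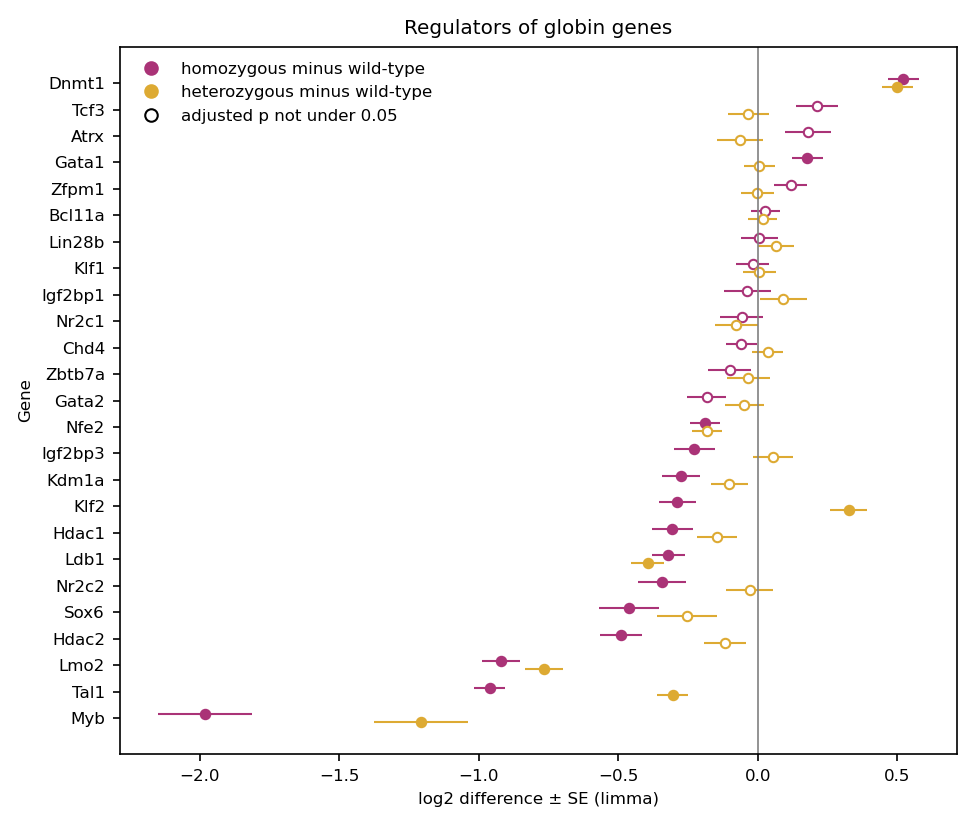
Log2 differences from wild type (± SE, limma) of 25 regulators of globin genes, each by its brightest probe set; open points did not reach an adjusted p under 0.05. Myb, Tal1 and Lmo2 fell in both mutant genotypes, Dnmt1 rose in both, and Klf1 lay near 0.

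Genes that handle globin chains or their mRNA moved in both directions. Of 5 measured, 2 fell and 2 rose in homozygous minus wild-type blood (14.9% of all genes were called lower and 10.7% higher). In either direction 48.6% of probe sets passed at means of 6 to 8, 69.0% at 8 to 10 and 62.9% at 10 to 12, globin probe sets left out. Ube2o, a ubiquitin ligase that clears ribosomes and unpaired alpha chains from maturing red cells, fell by 0.78 in homozygous and by 0.52 in heterozygous blood. Eif2ak1, the heme-regulated kinase that limits globin translation, fell by 0.38 in homozygous blood (its other probe sets from -0.28 to 0.19). Pcbp1 and Pcbp2, RNA-binding proteins that stabilize alpha globin mRNA, rose by 0.28 and 0.40. The median of the list was -0.092.

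Other measures moved with genotype in these arrays. The counts of markers below stand against 14.9% of all genes called lower and 10.7% higher in homozygous minus wild-type blood, and 7.04% and 4.79% in heterozygous minus wild-type blood. Red cell genes were bright, with Alas2, the erythroid heme synthesis enzyme, at 13.29 and Slc4a1, the anion exchanger, at 12.74 in wild-type blood. Among probe sets as bright as most erythroid markers, calls in homozygous minus wild-type blood were commoner than over all genes. In either direction 69.0% passed at means of 8 to 10, 62.9% at 10 to 12 and 42.8% at 12 to 13, globin probe sets left out. Of 10 measured erythroid markers 5 fell and 1 rose in homozygous minus wild-type blood. The mean log2 level of this list ranged from 10.74 to 10.76 over the wild-type and from 10.44 to 10.51 over the homozygous arrays. Of 5 markers of definitive erythroid and progenitor cells, which share Myb, Sox6 and Bcl11a with the regulators, 4 fell, and the list's mean went from 4.97 to 5.10 down to 4.18 to 4.47. Car1, a carbonic anhydrase of definitive red cells, read 4.29 in wild-type and 3.72 in homozygous blood, near the array medians. All 12 macrophage markers fell, their mean level from 7.12 to 7.19 down to 4.63 to 4.75. Markers of megakaryocytes fell in 8 of 9, of mesenchyme in 5 of 7 and of neutrophils in 3 of 8 in homozygous minus wild-type blood, those of hepatocytes rose in 5 of 6, and none of the 6 of endothelium passed. In heterozygous minus wild-type blood 5 of 10 erythroid markers, 2 of the 5 definitive, 5 of the 12 macrophage, 4 of 8 neutrophil and 1 of 6 hepatocyte markers fell. There 2 of 9 megakaryocyte and 2 of 7 mesenchyme markers rose, the direction opposite to homozygous blood, and none of endothelium passed. The poly-A spike-ins, which are RNAs of bacterial genes put into a sample ahead of labelling, rose by 1.58 from wild-type to homozygous and by 0.88 to heterozygous arrays. The hybridization spike-ins, which are added later, differed by 0.28 in homozygous and by -0.0012 in heterozygous minus wild-type arrays. Setting the poly-A means equal would lower each globin difference from wild type by 1.58 in homozygous and by 0.88 in heterozygous arrays. Such a scaling was not run, and whether it suits values near the ceiling was not tested. The part of cell makeup and of the RNA input in the change of Hba-a2 was not tested.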

How the data were processed

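The authors deposited 1 table of log2 values, 45101 probe sets by 9 arrays. The scale is taken from the range and from RMA being named, since no label states it. Per the submitters' processing notes, Affymetrix Expression Console 1.0, RMA and Partek 6.5 were used, in roles that are not given in the sources used here. RNA-STAT extraction and one-cycle biotin labelling are named per the labels' protocols. RMA equalizes the arrays, so a uniform change in RNA content is removed. Array medians lay between 4.27 and 4.30, and neither scanner files nor detection calls entered.

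Genotype was the only term of a linear model over the 9 arrays (limma 3.58.1, R 4.3.3), without a replicate block, over the 45037 probe sets that are not controls. Tests were 2-sided and adjusted by Benjamini-Hochberg over all of them, with a threshold of 0.05. The fit was tested on simulated data. Probe sets were named from GEO's platform annotation, with symbols checked through Entrez identifiers against RefSeq (GRCm38.p6, 34754 matched, 0 changed). Listed genes were read by the brightest probe set that names 1 gene. The members and lists were chosen with earlier results of these data known, so they are no independent support. Named genes follow a rule: all member probe sets, the 5 nearest patterns of each called one, and from each list up to 4 called genes with the largest change per comparison and 2 uncalled ones. Sox6, Gata1 and the cell markers were added after their values were seen. Same-numbered replicates did not deviate together (correlations -0.023 to 0.070), so numbers were not taken as pairs. Promoter sequences are RefSeq's; Hbb-bh1, Hbb-b1 and Hbb-b2 had no entry in the table used. Figures were drawn with matplotlib.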

Additional observations from a re-analysis of the deposited data

How the results depend on the processing

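The 3 falls of Hba-a2 and the homozygous rise of the dim Hbb-b2 probe set kept their call in all 21 alternatives, with ranges of -0.79 to -0.69 (Hba-a2, homozygous minus wild-type) and 0.39 to 0.52 (Hbb-b2). The count of 2 globin probe sets called in homozygous minus wild-type arrays became 7 with an intensity trend in the spread and 7 without variance moderation; left-out arrays gave 2 throughout. In heterozygous minus wild-type blood 1 became 2 in the fit of only the 2 groups, with an intensity trend, with array weights and with reference gene scaling; left-out arrays gave 1 to 2. In homozygous minus heterozygous blood 1 became 3 with an intensity trend, 4 without moderation and 13 with reference gene scaling; left-out arrays gave 1 to 2. Reference genes moved the median of all probe sets in that comparison to 0.205 and called 57.7% of them; the shared adult beta probe set (Hbb-bt, Hbb-bs, Hbb-b2 and Hbb-b1) turned from -0.0067 to 0.17 there (adjusted p = 0.0282, range over its alternatives 0.0282 to 0.997).

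Of the regulators, 14 became 9 at a threshold of 0.01 (homozygous minus wild-type; left-out arrays 10 to 14), 6 became 10 with reference genes (heterozygous minus wild-type; left-out arrays 6), and 6 became 14 with reference genes and 3 at 0.01 (homozygous minus heterozygous; left-out arrays 4 to 7). Of the chain handling genes, 2 became 4 without the dimmest 40%, with an intensity trend, without moderation and with array weights (heterozygous minus wild-type). In homozygous minus heterozygous blood 3 became 1 in the fit of only 2 groups and 0 at 0.01; left-out arrays gave 0 to 3. For myoglobin, neuroglobin and cytoglobin, the 1 call in homozygous minus wild-type blood became 0 without moderation, with cyclic loess and at 0.01, and 2 with quantile normalization; left-out arrays gave 0 to 1. Their 0 calls in homozygous minus heterozygous blood became 3 with reference genes; left-out arrays gave 0 to 1. Among single genes in homozygous minus wild-type blood, Igf2bp3 lost its call in 15 of 21 alternatives, Gata1 in 13, Ngb in 8 and Nfe2 in 7. Nr2c2 lost it in 3 there, and Sox6 and Kdm1a in 1 each. For heterozygous minus wild-type blood Klf2, Myb, Dnmt1 and Pcbp1 lost it in 1 each. For homozygous minus heterozygous blood Igf2bp3 lost it in 10, Eif2ak1 in 9, Nr2c2 in 8, Pcbp2 in 5, and Myb and Ube2o in 3 each. The cause of these changes was not tested. With the replicate number as a block, globin calls stayed at 2, 1 and 1 and regulator calls were 12, 6 and 6; no call of a globin probe set changed.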

Other observations

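Of the other globin genes only myoglobin, neuroglobin and cytoglobin had a probe set of their own, and none reached a mean of 7. Mb, which encodes the oxygen store of muscle, read 6.20 in wild-type and 6.32 in homozygous blood, a log2 difference of 0.12 that did not pass (adjusted p = 0.17, limma). Ngb, the neuronal globin gene, had means of 6.00 (wild-type), 6.08 (heterozygous) and 6.26 (homozygous). Its homozygous rise of 0.26 ± 0.08 (SE) passed (adjusted p = 0.03, limma; lost in 8 of 21 alternatives), and its other probe set gave -0.10. Cygb, a globin gene of fibroblast-like cells, differed by 0.12 (adjusted p = 0.333). In heterozygous minus wild-type blood these genes were at -0.00083, 0.080 and -0.024, and 0 of 3 passed.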
